A study of Mus musculus with 8 samples.

Results

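The genes described here encode sensors of the inflammasome and the machinery they act through: the sensors Nlrp3, Nlrc4 and Aim2, the adaptor Pycard (ASC), the inflammatory caspases Casp1 and Casp4 (caspase-11), the pore-forming effector Gsdmd, and the peptidoglycan receptors Nod1 and Nod2. Their rows were taken by symbol, from a list made with earlier results of these data known. All 9 symbols were found among the 24339 genes of the expression table, and all 9 were among the 10447 genes whose mean reached 1 FPKM, a fragment count scaled for transcript length and for the size of the library, and that were therefore tested.

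Expression was read by RNA sequencing in plated peritoneal macrophages of C57BL/6 mice, either wild type or α7nAChR-/-, which lack the α7 subunit of the nicotinic acetylcholine receptor (gene Chrna7). Cells of each genotype received vehicle followed by vehicle, 10 µM nicotine followed by vehicle, vehicle followed by 100 ng/ml lipopolysaccharide (LPS), or 10 µM nicotine followed by 100 ng/ml LPS. The first step lasted 15 min and the second 4 h. There were thus 8 groups with 1 library each, named below vehicle, nicotine, LPS and nicotine plus LPS within each genotype. The labels give neither the age nor the number of animals behind a library, nor whether the 4 libraries of a genotype shared a cell preparation, so the part of genotype and that of the preparation cannot be told apart. P-values below rest on the spread among these libraries after a fitted model, not on repeats of a group, and they come from limma with Benjamini-Hochberg adjustment over all 10447 tested genes on the log2(FPKM + 1) scale. A change was called at an adjusted p under 0.05.

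Inflammasomes are assembled when a cytosolic sensor meets a microbial product or a sign of cell damage and recruits caspase-1, often through the adaptor ASC. Caspase-1 matures interleukin 1β and interleukin 18, and caspase-1 and caspase-11 cut gasdermin D, whose fragment forms pores in the plasma membrane. Nlrp3 transcription is known to be raised by Toll-like receptor signalling ahead of assembly, a step called priming. Nod1 and Nod2 instead recognise fragments of bacterial cell wall and signal through the kinase Ripk2 to NF-κB. These data hold RNA levels only and do not measure assembly, cleavage or pore formation.

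The libraries' FPKM sums ran from 413052 to 854016. They were lowest in the vehicle libraries, at 413052 (wild type) and 442307 (knockout), and highest in the LPS libraries, at 795630 and 854016. Counts of reads were not among the values used, so the depth behind each value is unknown. When each library was rescaled to the same sum, the median log2 change of all tested genes moved from 0.02 to -0.54 for LPS, from -0.03 to 0.28 for nicotine under LPS and from 0.03 to -0.24 for nicotine without LPS. The share of called genes that were higher moved with it, from 58.4% to 16.4% for LPS, from 48.5% to 67.5% for nicotine under LPS and from 53.7% to 36.8% for nicotine without LPS. Chrna7 was listed at 0 in all 8 libraries, so it checks no genotype label, and Gapdh, a glycolytic gene of every cell, was listed at only 1.34 to 8.90 FPKM. All 9 macrophage markers were detected, with a summed level of 20520 to 34860 FPKM, most of it Lyz2 (17576 to 32448 FPKM). Gata6, a factor of resident peritoneal macrophages, moved with both nicotine and genotype: it was 15.7 FPKM with vehicle, 2.30 after nicotine, 13.8 with LPS and 2.45 with both in wild type cells, and 3.49, 0.874, 4.84 and 0.814 FPKM in knockout cells. Other macrophage markers differed in direction by genotype. Timd4 was 20.3, 34.5, 108 and 29.1 FPKM in wild type and 85.7, 78.3, 222 and 89.0 FPKM in knockout cells, in the same order. Cd68 was lower in knockout cells with each treatment, and Adgre1 was 289 to 421 FPKM over the 8 libraries. Of 5 mast cell markers all were detected, and their summed level was 294 to 738 FPKM in the 4 libraries with nicotine against 155 to 276 FPKM in the 4 without. Of 4 eosinophil markers, Epx was at 0 in all libraries, and the summed level was 15.0 to 26.4 FPKM in wild type against 2.11 to 3.22 FPKM in knockout libraries. Nearly all of that gap was Ear2, at 13.9 to 24.8 FPKM in wild type and 1.27 to 2.39 FPKM in knockout libraries. Siglecf overlapped between genotypes, at 0.432 to 1.57 FPKM and 0.807 to 0.833 FPKM, and Prg2 was at most 0.133 FPKM. B cell markers (5 of 5 detected) summed to 161 to 352 FPKM, T cell markers (5 of 5) to 23.3 to 48.0 FPKM with nicotine against 12.9 to 24.9 FPKM without, and dendritic cell markers (5 of 5) to 85.9 to 205 FPKM with against 42.6 to 137 FPKM without. Of these, 3 T cell markers were called higher with nicotine under LPS, but without LPS 0 were called higher and 1 lower. For the average nicotine effect 3 dendritic cell markers were called higher, and the dendritic cell marker Xcr1 was 1.14 FPKM with LPS and 27.3 FPKM with nicotine plus LPS in wild type cells. Of 6 neutrophil markers 5 were in the table, 3 of them under 1 FPKM in all libraries, and the 3 mesothelial markers were all under 1 FPKM. The neutrophil marker S100a8 was 34.1 FPKM with vehicle, 22.8 after nicotine, 107 with LPS and 45.3 with both in wild type cells. In knockout cells it was 104, 57.8, 162 and 86.9 FPKM. The neutrophil markers S100a9 and Retnlg were at most 0.635 and 1.02 FPKM. The part of these other cells, and of the macrophages' own Gata6 level, in the results below was not tested, and in bulk RNA fewer cells of a type and less RNA per cell cannot be told apart.

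The sequences just before the start sites of Nlrp3, Casp4 and Casp1 are shown first because Nlrp3 and Casp4 were the only members whose promoter windows held a κB motif, the sequence bound by NF-κB, while Casp1 lies beside Casp4 and its window held none. Windows of 250 bases before to 50 bases after annotated start sites came from RefSeq on GRCm38.p6, where 8 of the 9 members had 11 windows in all. Gsdmd had no window and was not searched. The 250 bases before the start are printed 5′ to 3′ on the gene's strand, which is the plus strand for all 3, and capitals mark motif matches.
Nlrp3, chr11:59541319-59541568: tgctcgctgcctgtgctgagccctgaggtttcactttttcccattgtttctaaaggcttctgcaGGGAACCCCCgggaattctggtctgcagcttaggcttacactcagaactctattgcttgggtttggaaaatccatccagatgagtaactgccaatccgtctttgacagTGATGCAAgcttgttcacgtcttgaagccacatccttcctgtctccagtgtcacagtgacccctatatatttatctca
Casp4, chr9:5308599-5308848: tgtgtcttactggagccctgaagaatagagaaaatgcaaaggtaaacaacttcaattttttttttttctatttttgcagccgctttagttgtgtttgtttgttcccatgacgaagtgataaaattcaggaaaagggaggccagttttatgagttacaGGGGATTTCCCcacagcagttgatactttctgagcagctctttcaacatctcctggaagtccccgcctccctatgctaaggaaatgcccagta
Casp1, chr9:5298267-5298516: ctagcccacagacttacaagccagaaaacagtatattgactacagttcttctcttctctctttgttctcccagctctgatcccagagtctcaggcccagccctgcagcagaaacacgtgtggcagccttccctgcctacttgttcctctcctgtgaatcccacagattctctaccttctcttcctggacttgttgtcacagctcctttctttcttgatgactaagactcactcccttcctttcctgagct

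The search covered both strands of each window for the κB motif, the interferon-stimulated response element, the AP-1 site TGANTCA and the C/EBP-ATF composite site TTGCATCA. In Nlrp3 the first run of capitals matched the κB motif at positions -186 to -177 from the start site, and the second matched the C/EBP-ATF site at -78 to -71. Both matches were on the strand opposite to the printed one. In Casp4 the capitals held overlapping κB matches from -93 to -83, and the second, overlapping Casp4 window held the same run. Over all 32851 RefSeq windows of this length, 4.51% held the κB motif and 0.895% the C/EBP-ATF site, against 3 of 11 and 1 of 11 windows of the members. The response element was in 3.44% and the AP-1 site in 7.81% of all windows, and neither was in a window of a member. The 8 other windows, among them the second window of Nlrp3, that of Casp1 and those of Nlrc4, Aim2, Pycard, Nod1 and Nod2, held none of the 4 motifs. Members without a κB match also rose with LPS. Without nicotine, Nod2 rose 38.1-fold in FPKM in wild type cells, from a low vehicle value of 1.18 FPKM, against 37.9-fold for Nlrp3 and 11.8-fold for Casp4. In knockout cells the ratios were 7.10 for Nod2, 21.2 for Nlrp3 and 10.2 for Casp4. The part of the motif in these rises was not tested. These are matches of letters, not measured binding, and the motifs were chosen with the expression results known.

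**Figure D1:**
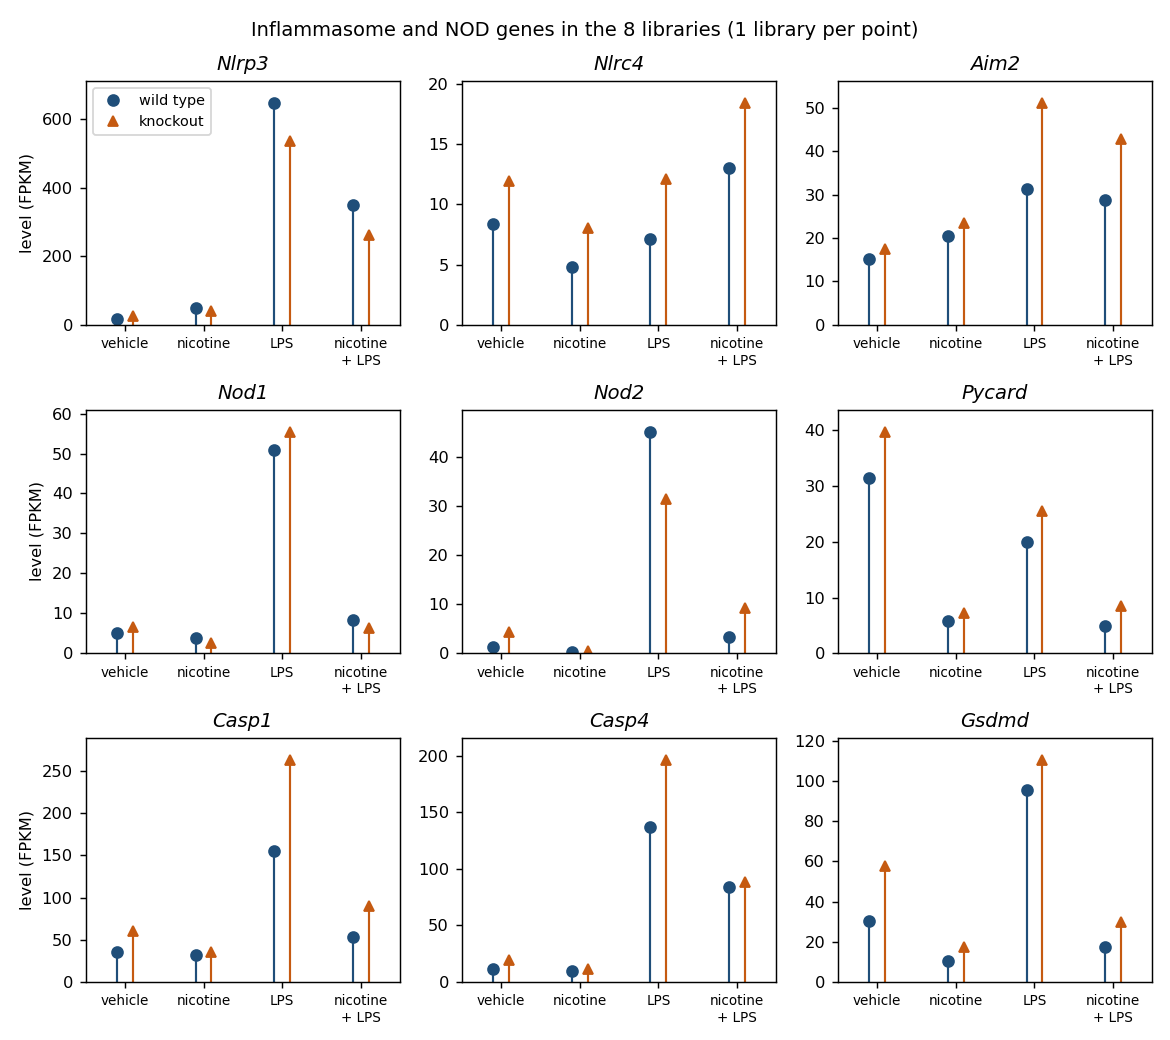
Level of each of the 9 genes in FPKM (linear axis from 0, own scale per gene) in the 8 libraries, 1 point per library, with treatments along the x axis, wild type as circles and knockout as triangles. Nlrp3 and Casp4 sit higher in every library with LPS than in any without, whereas Pycard and Gsdmd sit lower in every library with nicotine than in any without.

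LPS raised most of the set and nicotine lowered most of it. Averaged over genotype and nicotine, 7 of the 9 genes were called higher with LPS and 0 lower, where 15.8% of all tested genes were called higher and 11.3% lower. Under LPS, nicotine left 7 of 9 called lower and 1 higher, where 28.6% of tested genes were called lower and 26.9% higher. Without LPS, nicotine left 5 of 9 called lower and 1 higher, against 26% and 30.1% of tested genes. Over all 4 pairs of libraries, nicotine left 6 of 9 called lower and 0 higher, against 22.2% and 24.1%. These comparisons share control libraries and are therefore given side by side. In either direction the nicotine comparisons called 46.3% of tested genes on average over LPS, 55.6% under LPS and 56% without LPS, so the counts are to be read against these shares. Mast cell markers and Gata6 moved with nicotine as given above.

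Nlrp3 encodes the sensor that responds to ion fluxes and membrane damage and lies at chr11:59541568-59566956 on GRCm38, plus strand. In wild type cells it stood at 17.05 FPKM with vehicle, 48.4 after nicotine, 647 with LPS and 350 with nicotine plus LPS. In knockout cells the same order gave 25.2, 39.4, 535 and 262 FPKM. The 4 libraries with LPS did not overlap the 4 without. Within each LPS state the 2 libraries with nicotine did not overlap the 2 without. That also held for Nlrc4, Pycard, Casp1, Gsdmd, Nod1 and Nod2. Its share over all tested genes was not determined, so it is not read as a trait of the members. The nicotine comparisons called 56% of tested genes without LPS and 55.6% under LPS. LPS raised Nlrp3 by 3.76 ± 0.42 (SE; adjusted p 0.00294), 13.6-fold on the log2(FPKM + 1) scale. Nicotine raised it without LPS, by 1.04 ± 0.24 (adjusted p 0.0109), and left it lower under LPS, by a log2 change of -0.95 ± 0.24 (adjusted p 0.0148). Of all tested genes, 1.94% were called in these opposite directions, and Nlrp3 was the only one of the 9. The 2 nicotine effects differed by -1.99 ± 0.34 (interaction, adjusted p 0.00994). In FPKM, LPS multiplied Nlrp3 by 37.9 in wild type and 21.2 in knockout cells without nicotine, and by 7.23 and 6.66 with it. The fall under LPS was the less secure of the effects, since its adjusted p was 0.0697 without the wild type LPS library (-0.85), 0.115 without the knockout nicotine plus LPS library (-0.75), 0.0544 with libraries scaled to 1 sum (-0.60) and 0.11 with quantile scaling (-0.58). The rise without LPS had an adjusted p of 0.083 without the wild type nicotine library (0.92), and its size was 0.61 without the wild type vehicle library, still called.

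Nlrc4 encodes the sensor that, with the NAIP proteins, responds to bacterial flagellin and secretion system parts, and it lies at chr17:74425438-74459142 on the minus strand. Wild type cells held 8.35 FPKM with vehicle, 4.82 after nicotine, 7.16 with LPS and 13.0 with nicotine plus LPS. Knockout cells held 11.9, 8.02, 12.1 and 18.4 FPKM. In both genotypes the nicotine library was the lowest and the nicotine plus LPS library the highest, and the libraries with and without LPS overlapped. Nlrc4 mirrored Nlrp3 in sign: without LPS its log2 change with nicotine was -0.60 ± 0.14 (adjusted p 0.0104), and under LPS it was 0.67 ± 0.14 (adjusted p 0.00663), with an interaction of 1.27 ± 0.19 (adjusted p 0.00773). Only 1.99% of tested genes were called in these opposite directions, and Nlrc4 was the only one of the 9. LPS alone changed Nlrc4 little, with ratios of 0.858 in wild type and 1.02 in knockout cells, against 2.70 and 2.29 in the presence of nicotine. Its average LPS effect of 0.55 ± 0.27 did not pass the test (adjusted p 0.156) and was -0.0068 with libraries scaled to 1 sum, but it passed with all pairwise interactions in the model (adjusted p 0.0125). Scaling to 1 sum also made the nicotine effects larger in size, -0.92 without and 1.03 under LPS, with an interaction of 1.95, all called. The fall without LPS had an adjusted p of 0.0898 without the wild type vehicle library (-0.54) and 0.0697 without the wild type nicotine library (-0.55), and the rise under LPS one of 0.0621 without the wild type nicotine plus LPS library (0.61).

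Aim2 encodes the sensor of cytosolic double-stranded DNA, an interferon-inducible gene, and lies at chr1:173350879-173466040 on the plus strand. In wild type cells it was 15.3 FPKM with vehicle, 20.4 after nicotine, 31.4 with LPS and 28.8 with nicotine plus LPS. In knockout cells it was 17.6, 23.6, 51.1 and 42.8 FPKM. In FPKM as deposited, every library with LPS was above every library without, and the libraries with and without nicotine overlapped. LPS raised Aim2 by 0.95 ± 0.18 (adjusted p 0.0154), 1.93-fold. That call ended without the wild type vehicle library (0.93, adjusted p 0.0515), without the knockout vehicle library (0.82, adjusted p 0.0588) and with libraries scaled to 1 sum (0.36, adjusted p 0.0791). Aim2 was the only one of the 9 that no nicotine comparison called: the log2 change was 0.40 ± 0.17 without LPS (adjusted p 0.0889) and -0.19 ± 0.17 under LPS (adjusted p 0.391).

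The receptors Nod1 and Nod2 were higher with LPS on average and lower with nicotine under LPS. Nod1, which recognises peptidoglycan fragments with diaminopimelic acid, lies at chr6:54923949-54972612 on the minus strand. It was 4.96 FPKM with vehicle, 3.85 after nicotine, 51.0 with LPS and 8.21 with nicotine plus LPS in wild type cells. In knockout cells it was 6.70, 2.55, 55.5 and 6.44 FPKM. The LPS libraries without nicotine stood alone above 50 FPKM, whereas the knockout nicotine plus LPS library lay below the knockout vehicle library, so libraries with and without LPS overlapped. LPS raised Nod1 by 1.998 ± 0.42 on average (adjusted p 0.0189). Leaving out the wild type LPS library (1.79, adjusted p 0.0588), the knockout vehicle library (1.86, adjusted p 0.0704) or the knockout LPS library (1.70, adjusted p 0.0637) ended that call. Under LPS, nicotine lowered Nod1 by a log2 change of -2.71 ± 0.22 (adjusted p 0.000309), a ratio of 6.21-fold in wild type and 8.62-fold in knockout cells, and the interaction was -2.004 ± 0.31 (adjusted p 0.0081).

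Nod2, the receptor for muramyl dipeptide, lies at chr8:88647315-88688474 on the plus strand. Wild type cells held 1.18 FPKM with vehicle, 0.268 after nicotine, 45.1 with LPS and 3.40 with nicotine plus LPS. Knockout cells held 4.42, 0.538, 31.4 and 9.11 FPKM. Nod2 was the lowest of the 9 genes in each library without LPS and under 1 FPKM in both nicotine libraries. The wild type nicotine plus LPS library lay below the knockout vehicle library, so libraries with and without LPS overlapped. LPS raised Nod2 by 2.87 ± 0.39 (adjusted p 0.00497, or 1.75 with a pseudocount of 5, still called), and under LPS nicotine lowered it by -2.53 ± 0.43 (adjusted p 0.0033), 13.3-fold in FPKM in wild type and 3.44-fold in knockout cells. In contrast to Nlrp3, Casp1 and Nod1, its LPS ratio was not smaller with nicotine in both genotypes: it went from 38.1 to 12.7 in wild type cells and from 7.10 to 16.9 in knockout cells, and the interaction of -1.23 ± 0.61 did not pass the test (adjusted p 0.166), though it did without the knockout LPS library (-1.95, adjusted p 0.0214) and with a pseudocount of 5 (-1.47, adjusted p 0.0384).

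Without LPS, nicotine was followed by lower values of both receptors, -0.71 ± 0.22 for Nod1 (adjusted p 0.0324) and -1.30 ± 0.43 for Nod2 (adjusted p 0.0395). Both calls depended on single libraries and on settings. Nod1's adjusted p was 0.231 without the knockout vehicle library (-0.42) and 0.218 without the knockout nicotine library (-0.45). Nod2's was 0.242 without the knockout vehicle library (-0.81), 0.193 without the knockout nicotine library (-1.11) and 0.101 without the wild type nicotine library (-1.50). Both calls also ended with a pseudocount of 5 (-0.40 and -0.50), which damps changes of low genes, as well as with no filter on low values and with quantile scaling, and that of Nod2 with all pairwise interactions in the model (adjusted p 0.0795). With a pseudocount of 0.1 the Nod2 change was -2.31.

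Pycard encodes ASC, the adaptor that links Nlrp3 and Aim2 to caspase-1, and lies at chr7:127989708-127993867 on the minus strand. Nicotine lowered it in both LPS states, and LPS did not raise it. Its wild type values were 31.5 FPKM with vehicle, 5.73 after nicotine, 20.0 with LPS and 4.83 with nicotine plus LPS. Its knockout values were 39.7, 7.18, 25.4 and 8.44 FPKM. All 4 libraries with nicotine lay under 9 FPKM and all 4 without at 20 FPKM or above. Nicotine lowered Pycard by -2.29 ± 0.16 without LPS (adjusted p 0.00028) and by -1.67 ± 0.16 under LPS (adjusted p 0.000412). The 2 effects did not differ past the threshold (0.63 ± 0.22, adjusted p 0.0723), although they did with libraries scaled to 1 sum (1.30, adjusted p 0.0106), with quantile scaling (1.16, adjusted p 0.0129) and with a pseudocount of 5 (0.56, adjusted p 0.0414). The LPS effect was -0.31 ± 0.18 (adjusted p 0.204) and was called lower only with libraries scaled to 1 sum (-0.91, adjusted p 0.0361). Of the 9 genes, Pycard alone shares exon bases with another annotated gene, 485 bases on the opposite strand with Gm45205, which has no row in the table. The library kit does not mark strand.

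Casp1 and Casp4 are neighbours on the plus strand of chromosome 9, at chr9:5298517-5307265 and chr9:5308828-5336783, 1562 bases apart. Casp1, the protease of the canonical inflammasome, was 35.3 FPKM with vehicle, 31.7 after nicotine, 155 with LPS and 52.7 with nicotine plus LPS in wild type cells. In knockout cells it was 59.8, 34.8, 263 and 89.8 FPKM. The 2 LPS libraries without nicotine were the highest, and the wild type nicotine plus LPS library lay below the knockout vehicle library. LPS raised Casp1 by 1.57 ± 0.26 (adjusted p 0.0101), or by 0.97 with libraries scaled to 1 sum and 1.04 with quantile scaling, and under LPS nicotine lowered it by -1.54 ± 0.19 (adjusted p 0.00102), 2.94-fold in wild type and 2.93-fold in knockout cells. Without LPS the nicotine effect was -0.46 ± 0.19 (adjusted p 0.0813). It passed the test with libraries scaled to 1 sum (-0.76), with quantile scaling (-0.92) and, at an adjusted p of 0.0245, with the wild type nicotine library left out (-0.77).

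The interaction for Casp1, -1.08 ± 0.27 (adjusted p 0.028), rested on the settings and libraries used. It was -0.43 (adjusted p 0.235) with libraries scaled to 1 sum, -0.31 (adjusted p 0.383) with quantile scaling and had an adjusted p of 0.0523 with no filter. Leaving out 1 library ended the call in 6 of 8 cases: the wild type vehicle (-0.99), nicotine (-0.77) and nicotine plus LPS (-0.98) libraries, and the knockout vehicle (-1.18), LPS (-0.98) and nicotine plus LPS (-1.19) libraries. Averaged over LPS, the nicotine effect on Casp1 was -0.999 ± 0.26 (adjusted p 0.0197), and that call ended without 1 of 5 libraries, at adjusted p values of 0.0505 to 0.0625: the wild type LPS (-0.90) and nicotine plus LPS (-0.82) libraries and the knockout nicotine (-1.02), LPS (-0.82) and nicotine plus LPS (-0.90) libraries.

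Casp4, the caspase that binds cytosolic LPS, held 11.6 FPKM with vehicle, 9.36 after nicotine, 137 with LPS and 84.2 with nicotine plus LPS in wild type cells. Knockout cells held 19.2, 11.7, 196 and 88.3 FPKM. Libraries with and without LPS were apart by a wide margin, from 19.2 to 84.2 FPKM. LPS raised Casp4 by 3.15 ± 0.17 (adjusted p 0.000334), 8.88-fold, with the smallest adjusted p of the 9 genes. Its LPS ratio was nearly kept in the presence of nicotine, at 11.8 without against 9 with nicotine in wild type and at 10.2 against 7.57 in knockout cells. The interaction of -0.44 ± 0.25 did not pass (adjusted p 0.214). Under LPS nicotine lowered it by -0.92 ± 0.18 (adjusted p 0.00522), or -0.56 with libraries scaled to 1 sum. Without LPS the log2 change was -0.48 ± 0.18 (adjusted p 0.0572), and it passed under 4 alternatives (-0.78 with libraries scaled to 1 sum, -0.51 with median centring, -0.66 with quantile scaling, and the same -0.48 with all pairwise interactions in the model). The fall averaged over LPS, -0.70 ± 0.17 (adjusted p 0.0158), had an adjusted p of 0.0533 without the knockout vehicle library (-0.68).

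Gsdmd encodes gasdermin D and lies at chr15:75862327-75867408 on the plus strand. It was 30.2 FPKM with vehicle, 10.6 after nicotine, 95.6 with LPS and 17.5 with nicotine plus LPS in wild type cells, and 57.8, 17.5, 111 and 29.7 FPKM in knockout cells. All 4 libraries with nicotine lay below all 4 without, the nearest being 29.7 FPKM in the knockout nicotine plus LPS and 30.2 FPKM in the wild type vehicle library. Nicotine lowered Gsdmd by -1.55 ± 0.19 without LPS (adjusted p 0.00104) and by -2.12 ± 0.19 under LPS (adjusted p 0.000369), and the interaction did not pass (-0.57 ± 0.27, adjusted p 0.145) except without the knockout LPS library (-0.86, adjusted p 0.0255). LPS raised it by 0.99 ± 0.19 (adjusted p 0.0151), a call that ended without the knockout vehicle library (0.99, adjusted p 0.0588), with libraries scaled to 1 sum (0.40, adjusted p 0.078) and with quantile scaling (0.55, adjusted p 0.0522). Gsdmd and Pycard were the 2 members whose 4 libraries with nicotine all lay below the 4 without, a pattern that 14.4% of tested genes shared. Nlrp3, Casp4 and Aim2 were the 3 whose LPS libraries all lay above the rest, which 9.83% of tested genes shared. Both patterns were counted on FPKM as deposited and not with libraries scaled to 1 sum. That scaling took the LPS effect on Aim2 from 0.95 to 0.36.

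**Figure D2:**
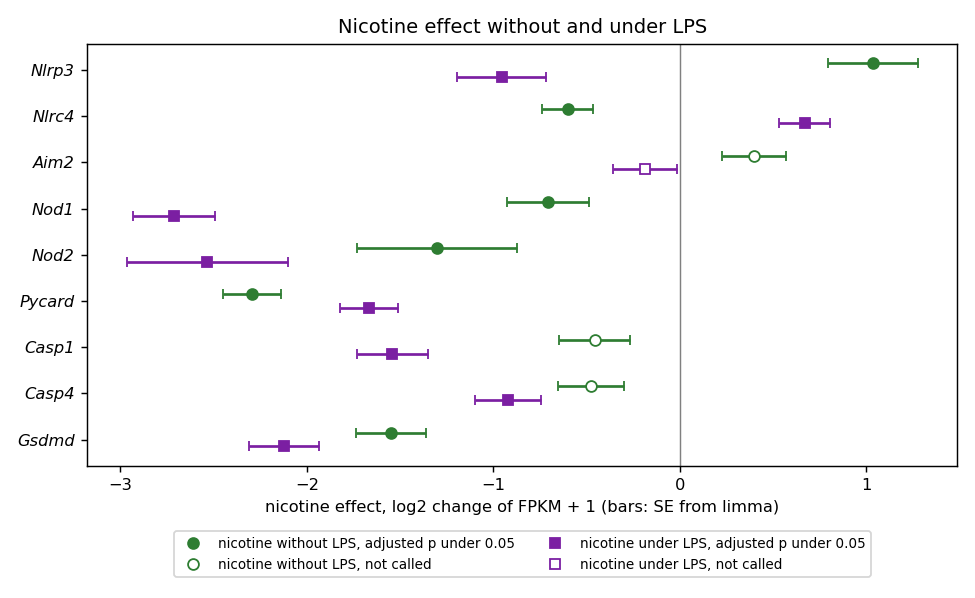
Log2 change with nicotine of each gene without LPS and under LPS (log2(FPKM + 1) scale), with bars of 1 SE from the model over all 8 libraries and open symbols for changes that did not pass the test. Nlrp3 lies above 0 without LPS and below 0 under LPS, Nlrc4 the reverse, and Pycard and Gsdmd lie well below 0 in both.

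Read across roles, nicotine without LPS was followed by lower levels of the adaptor and the pore protein, with Pycard 5.53-fold lower and Gsdmd 3.31-fold lower in knockout cells and 2.85-fold lower for Gsdmd in wild type cells. Changes of the caspases there were smaller, 1.11-fold and 1.72-fold lower for Casp1 and 1.24-fold and 1.65-fold lower for Casp4 in wild type and knockout cells, and neither was called. The sensors differed in sign, since Nlrp3 was 2.84-fold and 1.56-fold higher, Nlrc4 1.73-fold and 1.49-fold lower, and Aim2 1.33-fold and 1.34-fold higher. Under LPS, 8 of the 9 genes were lower with nicotine in both genotypes, where 43.7% of tested genes were. Of these, 5 were at least 2-fold lower in both genotypes (Pycard, Casp1, Gsdmd, Nod1 and Nod2), where 14.8% of tested genes were. The exception to the direction was Nlrc4, 1.52-fold higher in knockout cells under LPS.

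Nicotine narrowed the LPS response of some genes more than that of others. Without nicotine, LPS gave at least a 2-fold rise in both genotypes in 6 of 9 genes (16.4% of tested genes), and in the presence of nicotine in 5 of 9 (5.9%), which were Nlrp3, Nlrc4, Casp4, Nod1 and Nod2. The interaction of LPS and nicotine was called for 4 of 9 genes, 3 of them lower (Nlrp3, Nod1 and Casp1) and 1 higher (Nlrc4), where 17.3% of tested genes were called lower and 12.8% higher. Aim2, Casp4 and Gsdmd had negative interactions that did not pass, and all 3 turned positive with libraries scaled to 1 sum, at 0.051, 0.22 and 0.097.

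**Figure D3:**
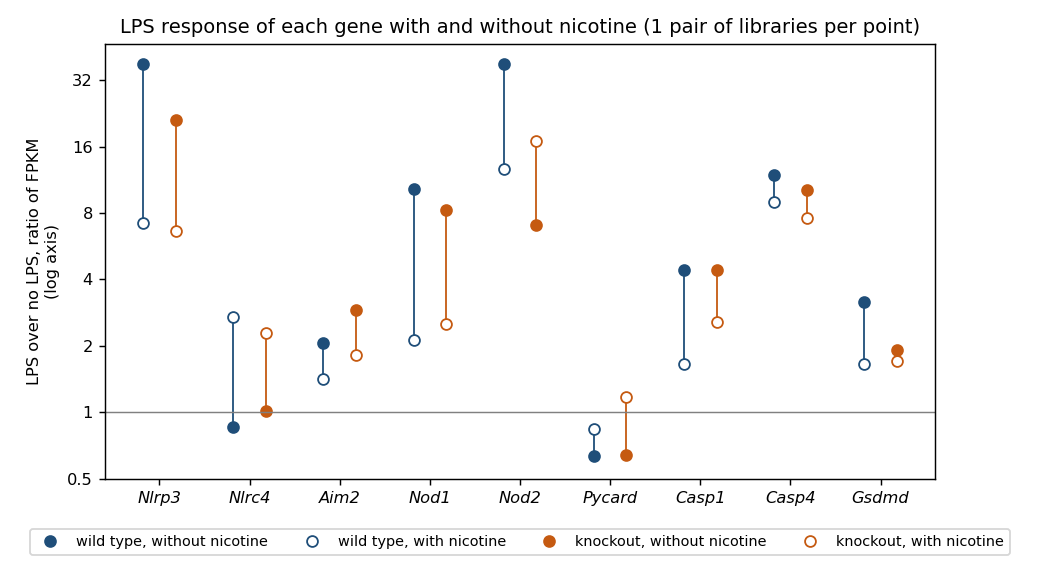
Ratio of FPKM with LPS to FPKM without LPS for each gene (log axis), without nicotine (filled) and with nicotine (open), 1 pair of libraries per point. The ratio of Nlrp3 falls from 37.9 to 7.23 in wild type cells, that of Nlrc4 rises from 0.858 to 2.70, and that of Casp4 stays close to its value without nicotine.

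These shifts changed the order of the transcripts, on the FPKM scale, which accounts for transcript length. The mean of the 2 vehicle libraries was highest for Casp1 (47.6 FPKM), Gsdmd (44.0) and Pycard (35.6), followed by Nlrp3 (21.1), Aim2 (16.4), Casp4 (15.4), Nlrc4 (10.1), Nod1 (5.83) and Nod2 (2.80). The first 3 overlapped between genotypes, and so did each neighbouring pair among Nlrp3, Aim2, Casp4 and Nlrc4. With LPS alone Nlrp3 led at 591 FPKM, ahead of Casp1 (209), Casp4 (167), Gsdmd (103), Nod1 (53.2), Aim2 (41.2), Nod2 (38.2), Pycard (22.7) and Nlrc4 (9.64), with overlap between Casp1 and Casp4 and among Nod1, Aim2 and Nod2. Pycard thus went from the third to the eighth place, below all of its partners but Nlrc4. With nicotine alone the order was Nlrp3 (43.9), Casp1 (33.3), Aim2 (22.0), Gsdmd (14.04), Casp4 (10.5), Pycard (6.46), Nlrc4 (6.42), Nod1 (3.20) and Nod2 (0.403), with overlap between Gsdmd and Casp4 and between Pycard and Nlrc4. With nicotine plus LPS, Nlrp3 at 306 FPKM was followed by Casp4 (86.3) and Casp1 (71.2), which overlapped, then by Aim2 (35.8), Gsdmd (23.6) and Nlrc4 (15.7), of which neighbours overlapped, and by Nod1 (7.32), Pycard (6.63) and Nod2 (6.26), which overlapped as well.

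Wild type and knockout cells were compared under the limit given above, that genotype and cell preparation cannot be told apart. None of the 9 genes was called between genotypes, where 1.1% of tested genes were (115 genes), and at an unadjusted p under 0.05 there was 1 member, Gsdmd, and 1293 genes. Gsdmd was 0.63 ± 0.19 higher in knockout cells (adjusted p 0.237). The other changes were 0.60 ± 0.26 for Casp1, 0.57 ± 0.39 for Nod2, 0.56 ± 0.27 for Nlrc4, 0.41 ± 0.18 for Aim2, 0.41 ± 0.18 for Pycard, 0.39 ± 0.17 for Casp4, -0.07 ± 0.42 for Nod1 and -0.11 ± 0.42 for Nlrp3. In direction, 6 of 9 (Nlrc4, Aim2, Pycard, Casp1, Casp4 and Gsdmd) were higher in the knockout library of all 4 pairs, where 18% of tested genes were. The eosinophil marker Ear2 and Gata6 were lower and Timd4 and S100a8 higher in knockout cells as given above, and their part was not tested.

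No difference between genotypes in the nicotine or the LPS effect was called, for any of the 9 genes or of the 10447 genes. At an unadjusted p under 0.05 the genotype by nicotine term had 634 genes and 1 member, Nod1, and the genotype by LPS term 955 genes and 0 members. The terms of the members lay between -0.62 and 0.34 for nicotine and between -0.47 and 0.43 for LPS. That model has 1 residual degree of freedom, so the missing calls do not show that the genotypes responded alike. As values, 8 of the 9 genes were lower with nicotine under LPS in both genotypes, where 43.7% of tested genes were, and Nlrc4 was higher in both. The values without LPS are given with each gene above, and nothing is concluded from them about the members or the receptor.

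Genes that work with the 9 were read from 5 lists. Of 18 other sensors, 12 were tested. LPS left 4 called higher and 2 lower (median -0.14, against 0.02 for all genes), nicotine without LPS 0 higher and 6 lower (median -0.91, against 0.03) and nicotine under LPS 1 higher and 6 lower (median -0.71, against -0.03). The largest rise with LPS was that of Ifi204, a DNA sensor of the Aim2-like family (4.35 ± 0.32), and the largest fall that of Naip1, a partner of Nlrc4 (-2.12 ± 0.39). The Naip1 call ended without the knockout vehicle library (-2.001, adjusted p 0.0534), and both genes have near-identical copies that can share reads. The mitochondrial family member Nlrx1 fell most with nicotine without LPS (-1.55 ± 0.17). Under LPS, nicotine lowered Mefv, which encodes the sensor pyrin (-3.49 ± 0.62), and raised Nlrc3 (1.36 ± 0.30), the latter not without the wild type nicotine plus LPS library (0.89, adjusted p 0.0599).

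Of 17 other caspases and death executors, 12 were tested, with 4 higher and 1 lower with LPS (median 0.03), 2 higher and 6 lower with nicotine without LPS (median -0.58) and 2 higher and 4 lower with nicotine under LPS (median -0.31). Casp8, which can stand in for caspase-1 and holds back necroptosis, went from 34.1 to 12.1 FPKM with nicotine without LPS and from 74.0 to 9.49 FPKM under LPS in wild type cells. In knockout cells it went from 35.7 to 14.2 FPKM and from 154 to 18.1 FPKM. All libraries with nicotine were below all without, and the log2 changes were -1.34 ± 0.26 (adjusted p 0.00563, or 0.0513 without the knockout nicotine library, at -1.12) and -2.93 ± 0.26 (adjusted p 0.00037). Under LPS the necroptosis effector Mlkl fell most (-3.61 ± 0.25) while its kinase Ripk3 rose (1.87 ± 0.24). Without LPS, Casp6 fell most (-1.46 ± 0.22) and Ripk1 rose most (1.36 ± 0.18), and with LPS the caspase-8 inhibitor Cflar rose most (2.96 ± 0.28) and Casp9 fell (-1.47 ± 0.23).

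Of 23 regulators of inflammasomes, 21 were tested, with 8 higher and 2 lower with LPS (median 0.34), 6 higher and 7 lower with nicotine without LPS (median -0.12) and 5 higher and 8 lower with nicotine under LPS (median -0.12). Gbp5, a guanylate-binding protein that promotes Nlrp3 activation, rose with LPS (52.2-fold) and was lower with nicotine without LPS (7.51-fold) and under LPS (9.81-fold), though its family holds close copies that can share reads. Txnip, a thioredoxin-binding protein that has been linked to Nlrp3, was 6.61-fold lower with nicotine without LPS and 2.87-fold lower under LPS. Nek7, the kinase that binds Nlrp3, had a log2 change of -0.08 ± 0.14 without LPS (adjusted p 0.671, or 0.031 with quantile scaling, at -0.52) and of 0.57 ± 0.14 under LPS (adjusted p 0.0146), which did not pass without the wild type LPS library (0.52, adjusted p 0.0539) or the knockout nicotine plus LPS library (0.47, adjusted p 0.113). P2rx7, the ATP-gated channel upstream of Nlrp3, rose most with nicotine under LPS (3.69-fold), and the chaperone gene Hspa8 rose most without LPS (1.102 ± 0.16). With LPS, Card9 fell most (-1.49 ± 0.36, adjusted p 0.0276), a call lost without any 1 of the vehicle libraries (-1.31 without that of wild type, -1.25 without that of knockout cells) or of the libraries given LPS alone (-1.39 and -1.16).

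Of 12 substrates and their inhibitors, 8 were tested, with 7 higher and 0 lower with LPS (median 2.20), 1 higher and 3 lower with nicotine without LPS (median -0.19) and 0 higher and 7 lower with nicotine under LPS (median -2.36). Il18, matured by caspase-1, stood at 8.73, 3.15, 96.3 and 4.07 FPKM in wild type and at 15.2, 6.88, 164 and 11.1 FPKM in knockout cells, in the order vehicle, nicotine, LPS, nicotine plus LPS. In each genotype the nicotine plus LPS library lay below the vehicle library. Under LPS nicotine lowered Il18 16.2-fold (adjusted p 0.000115), and without LPS 2.19-fold (adjusted p 0.00209). Its average rise with LPS (1.89 ± 0.57, adjusted p 0.049) was no longer called with a pseudocount of 5 (1.63, adjusted p 0.0629), with no filter on low values (adjusted p 0.0898) and without any 1 of 5 libraries, at 1.58 without wild type vehicle, 1.49 without wild type LPS, 1.49 without knockout vehicle, 1.57 without knockout LPS and 2.17 without knockout nicotine plus LPS. Il1b stood at 2.97, 0.850, 19504 and 63.2 FPKM in wild type and at 89.9, 10.7, 17894 and 1076 FPKM in knockout cells in the same order. Nicotine lowered it under LPS (-6.15 ± 1.01, adjusted p 0.00288), whereas the change without LPS did not pass (-2.03 ± 1.01, adjusted p 0.129) except without the wild type LPS library (adjusted p 0.00808) or the knockout LPS library (adjusted p 0.008). Il1a, by contrast, rose with nicotine without LPS (3.07 ± 0.70, adjusted p 0.0101), a call that ended without the wild type nicotine (3.15, adjusted p 0.0562) or knockout nicotine library (2.996, adjusted p 0.0639).

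All 20 genes of the list for Nod1 and Nod2 signalling were tested, with 8 higher and 0 lower with LPS (median 0.57), 14 higher and 1 lower with nicotine without LPS (median 0.80) and 7 higher and 8 lower with nicotine under LPS (median 0.03). Ripk2, the kinase both receptors use, stood at 19.4, 89.5, 122 and 141 FPKM in wild type and at 11.7, 54.1, 93.0 and 189 FPKM in knockout cells, in the order vehicle, nicotine, LPS, nicotine plus LPS. The vehicle libraries were lowest in both genotypes, unlike those of Nod1 and Nod2. Nicotine raised Ripk2 without LPS (2.13 ± 0.28, adjusted p 0.00136), and under LPS the change did not pass (0.61 ± 0.28, adjusted p 0.106) except with libraries scaled to 1 sum (0.97, adjusted p 0.029) and with the omission of the wild type nicotine plus LPS library (1.12, adjusted p 0.0148). LPS raised it by 1.98 ± 0.36 (adjusted p 0.0131, or 0.0522 without the knockout LPS library, at 1.799), and Irgm1 rose most with LPS in the list (13.3-fold). Slc15a3, a transporter of muramyl dipeptide, rose most with nicotine without LPS (2.14 ± 0.19) and Tab1, which couples to the kinase Tak1, fell (-1.53 ± 0.15). Under LPS, Slc15a2 rose most (1.999 ± 0.33) and the ubiquitin ligase gene Birc3 fell most (-1.68 ± 0.24).

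With libraries scaled to 1 sum the split of several lists changed. For LPS, the other sensors became 4 higher and 7 lower, the caspases and executors 3 and 4, the regulators 6 and 7 and the Nod signalling genes 6 and 4. For nicotine under LPS, the caspases and executors became 4 higher and 3 lower and the regulators 9 and 6, with a median of 0.24. The other sensors became 3 higher and 5 lower, and the Nod signalling genes 9 and 5, with a median of 0.37. For nicotine without LPS, the other sensors became 0 higher and 7 lower, the regulators 4 and 9 and the Nod signalling genes 11 and 4. The substrates became 7 higher and 1 lower for LPS and 0 higher and 5 lower, from 7 lower, for nicotine under LPS.

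**Figure D4:**
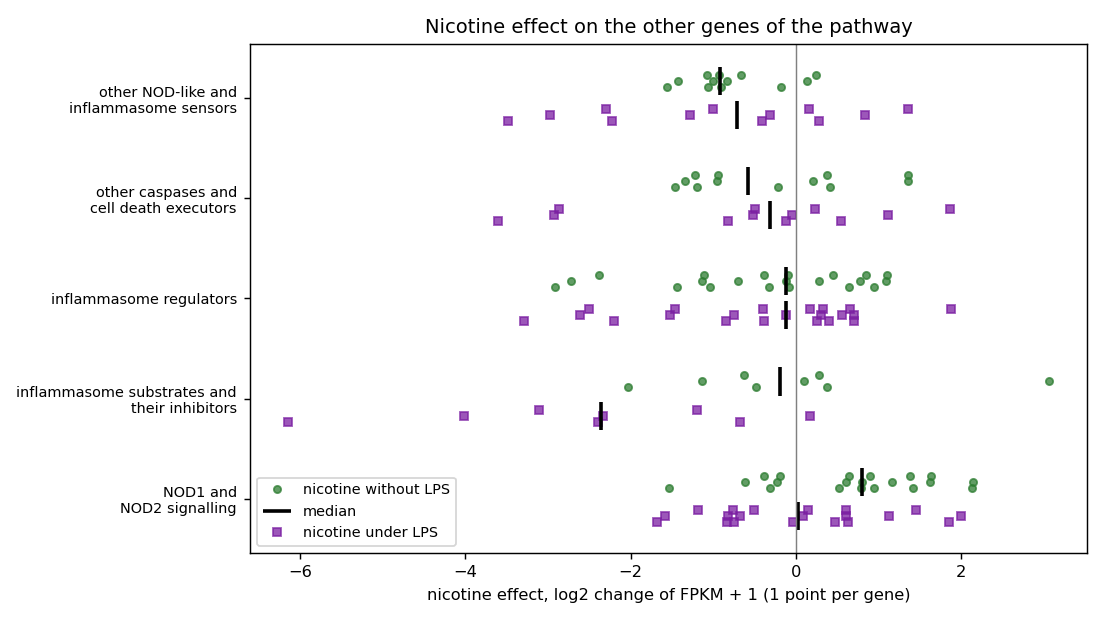
Log2 change of FPKM + 1 with nicotine (x axis) for each tested gene of the 5 lists, without LPS (circles) and under LPS (squares), with black bars at the medians and points spread vertically only to be seen. The substrates move from a median of -0.19 without LPS to -2.36 under LPS, and the Nod signalling genes lie mostly above 0 without LPS (median 0.80).

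Over the 8 libraries, which share treatments and scaling, several members moved closely together on the log2(FPKM + 1) scale. Pearson's r was 0.945 for Nlrp3 with Casp4, 0.96 for Casp1 with Nod2, 0.935 for Nod1 with Nod2 and 0.93 for Casp1 with Nod1. Pycard followed Gsdmd with an r of 0.76 and had an r of -0.20 with Nlrp3. The 3 tested genes most like each member in this measure, over n = 8 libraries, were Nfkb1, Rela and Tnfaip3 for Nlrp3 (0.995 to 0.991), Zfp607, Cenpc1 and S100a6 for Nlrc4 (0.944 to 0.909), and Dusp5, Cd69 and Katna1 for Aim2 (0.977 to 0.970). They were Fam188a, Uxt and Ptpn11 for Nod1 (0.992 to 0.990) and Acot9, Nol7 and Myo10 for Nod2 (0.994 to 0.990). Pex19, Nit1 and Lclat1 were nearest to Pycard (0.995 to 0.993), Traf3ip2, Cnn3 and Cxcl5 to Casp1 (0.996 to 0.994), Ifit1, Herc6 and Ifih1 to Casp4 (0.993 to 0.992) and Myo1g, Uba7 and Ikbke to Gsdmd (0.993 to 0.991). These are the highest of 10447 values per gene over few libraries and are given as a description.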

How the data were processed

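RNA of 8 groups of cultured peritoneal macrophages (2 genotypes, nicotine or vehicle, LPS or vehicle; 1 library each) had been sequenced from poly(A) libraries made with an unstranded kit, per the labels' protocols. The authors deposited 1 FPKM value for each gene in each library. CASAVA 1.8, Cufflinks, Cuffdiff, HISAT2 and the build mm10 are listed, without roles, in the submitters' processing notes, and neither the annotation nor the scaling between libraries is given in the sources used here. Of 24341 lines, 2 repeated symbols were reduced to the line with the highest mean. Depth is not given in counts, and no count test was run: of genes under 0.1 FPKM in a pair of libraries, only 33.2% to 41.4% had the commonest ratio (within 1%), so reads were not recovered.

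Differences were fitted with limma 3.58.1 in R 4.3.3 on log2(FPKM + 1), over 10447 genes whose mean reached 1 FPKM, with a trend in the moderation and Benjamini-Hochberg adjustment at 0.05. Average effects came from an additive model (4 residual degrees of freedom), the nicotine effects by LPS state and their interaction from 4 treatments plus genotype (3), and the genotype interactions from a model with all pairwise interactions (1). The spread is thus the departure from each model, and fold changes of low genes are understated by the pseudocount. The fits were also run on simulated data, with independent normal noise and effects placed within each model. Such data meet the model by construction, so the run cannot show whether the p-values hold for these libraries. Ratios between single libraries use FPKM itself. Gene positions came from GENCODE M21 on GRCm38 and promoter windows from RefSeq on GRCm38.p6. Python 3.11.15, pandas 2.3.3, NumPy 2.4.6 and Matplotlib 3.10.9 did the rest.

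The genes, lists, markers and motifs were chosen with earlier results of these data known. Named besides the 9 genes were the 3 tested genes most correlated with each (without predicted, Rik and small RNA genes), the called gene with the largest rise and the largest fall of each list in a comparison, and Il1b, Il18, Ripk2, Nek7, Casp8 and Txnip. Some results of this rule are not given. Alternatives were pseudocounts of 0.1 and 5, no filter and a minimum mean of 5 FPKM, libraries scaled to 1 sum (TPM scale), median centring, quantile scaling, moderation without trend, the model with pairwise interactions, and leaving out each library.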

Additional observations from a re-analysis of the deposited data

Results flagged for a closer look

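The nicotine effect under LPS differed from that without LPS, by the interaction term of limma with Benjamini-Hochberg adjustment, for 4 of the 9 genes. The difference on the log2 scale was -1.99 for Nlrp3, 1.27 for Nlrc4, -1.08 for Casp1 and -2.004 for Nod1. All 4 had the same sign in both genotypes, and 30.1% of tested genes were called in this comparison. In Nlrp3 and Nlrc4 the 2 nicotine effects had opposite signs, in Casp1 and Nod1 the same sign and different sizes. The values of each library and the libraries on which these calls rest are given with each gene above. No group had the 4 samples needed to look for a sample far from the others.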

How the results depend on the processing

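No paired analysis was possible because each group holds 1 library, and no replicate number can be a block; the models do hold genotype as a term and so compare treatments within genotype. For the members' effects, 146 of 153 values under the alternatives kept direction and side of the threshold for nicotine under LPS, 131 of 153 for nicotine without LPS, 141 of 153 for LPS, 136 of 153 for the average nicotine effect, 146 of 153 for genotype and 134 of 153 for the interaction.

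Values that turned in sign had not passed the test. On the TPM scale (libraries scaled to 1 sum) they were Nlrc4 for LPS (-0.0068), Aim2 for nicotine under LPS (0.17), and Aim2 (0.051), Casp4 (0.22) and Gsdmd (0.097) for the interaction, Gsdmd also with quantile scaling (0.15). For the average nicotine effect Nlrp3 turned with a pseudocount of 5 (-0.015). Leaving out 1 library at a time gave, for the average nicotine effect, -0.37 to 0.37 for Nlrp3 (below 0 without either vehicle or either nicotine library), -0.021 to 0.25 for Aim2 (below 0 without wild type nicotine or knockout vehicle) and -0.15 to 0.22 for Nlrc4 (below 0 without any library with LPS). For nicotine under LPS it gave -0.37 to 0.00031 for Aim2 (above 0 without knockout LPS). For genotype it gave -0.52 to 0.22 for Nlrp3 and -0.43 to 0.28 for Nod1, both above 0 without wild type nicotine, wild type LPS or knockout nicotine plus LPS, and Nod1 also without knockout vehicle. The cause was not tested.

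The number of members called for LPS was 7, and 4 to 7 with 1 library left out, 4 without knockout vehicle. It was 5 to 6 for the average nicotine effect, 7 to 8 for nicotine under LPS, 4 to 6 without LPS, 3 to 5 for the interaction and 0 for genotype. Without LPS it was 4 with a pseudocount of 5, 4 with no filter and 8 on the TPM scale, against 6 as reported, and the interaction gave 6 with a pseudocount of 5, against 4. Over all genes, LPS gave 2824 calls, 5265 on the TPM scale, 5929 with pairwise interactions and 803 to 2335 with 1 library left out. Genotype gave 115 calls, 55 with no filter, 651 with pairwise interactions and 13 to 171 with 1 library left out. The counts with 1 library left out were 3700 to 5564 of 5804 for nicotine under LPS, 3793 to 6461 of 5855 without LPS and 1035 to 3706 of 3143 for the interaction. The 0 calls of genotype by LPS became 1 gene with a pseudocount of 0.1. The share of interaction calls that were higher moved from 42.4% to 85.4% on the TPM scale and 55.4% with quantile scaling, and that of LPS calls to 44.5% with quantile scaling. With 1 library left out, the genotype interactions have no residual degree of freedom and were not refitted. Depth in reads is unknown, which limits low genes such as Nod2 most.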
